A study of Caenorhabditis elegans with 15 samples.

Results

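Whole adult Caenorhabditis elegans carrying knock-outs of gld-2 and parn-1 were compared with wild-type adults, gene by gene, to describe which RNA levels stay different from wild type and which do not. The members are the 3 libraries labelled gld2-parn1 and the 3 labelled wt, 6 of the 15 libraries of the series, which spans 5 genotypes with 3 libraries each. By their labels the gld2-parn1 animals are double knock-outs of gld2 and parn1, the gld2 animals are single knock-outs, and the wt animals are wild-type. The labels name no alleles and do not say how many animals went into a library. Animals of both genotypes were hand-picked as adults 24 h after the middle of the last larval stage, and RNA of all tissues was extracted together. The 3 gld2 libraries are compared only to show where the double mutant departs from the single mutant. All 15 libraries enter the fit that estimates the spread for every test.

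GLD-2 is a cytoplasmic poly(A) polymerase: it lengthens the tails of chosen mRNAs in germ cells, with RNA-binding partners such as GLD-3 and RNP-8, and is needed for germ cells to pass through meiosis. PARN-1 is a nuclease of the deadenylase family that in C. elegans is known for trimming the 3′ ends of piRNA precursors, the small RNAs bound by the Argonaute PRG-1. A hermaphrodite gonad first makes sperm in the last larval stage and then switches for good to oocytes, so wild-type young adults make little RNA for sperm proteins and much for oocytes and eggshell.

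The libraries held 31.57 to 38.6 M counts (1 M is 1e6) in wt and 34.7 to 36.58 M counts in gld2-parn1. Nuclear ribosomal RNA took 7.04% of the counts in wt replicate 1 and 6.80% in gld2-parn1 replicate 3, and 1.85% to 2.38% in the other 4. Calls were therefore also made without every library of the series above 4%. That run also left out gld2 replicate 3 (4.30%) and gld2-ccf1 replicate 2 (14.3%), which enter the shared estimate of the spread. Its results are thus not those of leaving out wt replicate 1 and gld2-parn1 replicate 3 alone. Between 17859 and 18671 genes had a count in a wt library and between 21395 and 21600 in a gld2-parn1 library (exact two-sided permutation p = 0.1, the smallest that 3 against 3 allows). Libraries of 1 genotype differed from each other by more than counting noise, so none was a copy. Nothing in the labels ties libraries to separate cultures, so p-values measure the spread between libraries, which may be technical.

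The targeted genes were read first. The level of gld-2, in counts per 1e6 counts (CPM) scaled by trimmed mean of M values, was 247, 202 and 185 in wt replicates 1 to 3 and 46.5, 53 and 61.2 in gld2-parn1. The groups did not overlap, and gld-2 was 3.94-fold lower in gld2-parn1 (log2 fold change -1.98 ± 0.18 (SE), edgeR quasi-likelihood test, Benjamini-Hochberg adjusted p = 7.23e-07). The level of parn-1 was 46.4, 52.5 and 48.6 CPM in wt and 62.2, 64.3 and 55.2 CPM in gld2-parn1. It was not reduced: the double-mutant libraries were all above the wt libraries, by 0.30 ± 0.09 on the log2 scale (edgeR adjusted p = 0.012), although that call was lost when the scaling used somatic genes only (0.12, adjusted p = 0.514) and without the libraries above 4% ribosomal RNA (0.27, adjusted p = 0.0519). Where a deletion spares most exons the spared exons are still counted, so counts cannot check the parn-1 label, and gld2-parn1 stands below for the libraries so labelled. The 2 other deadenylase genes of the study were lower. The change of ccr-4 was -0.73 ± 0.07 (adjusted p = 4.80e-08). That of ccf-1, catalytic subunit of the CCR4-NOT complex, was -1.60 ± 0.43 (adjusted p = 0.0102). For ccf-1 the edgeR adjusted p was 8.79e-07 with only the 6 libraries compared and 0.1 without the libraries above 4% ribosomal RNA. The spread of the main fit draws on all 15 libraries, among them those labelled gld2-ccf1.

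Of 16888 genes tested, 8506 (50.4%) differed between gld2-parn1 and wt at an adjusted p under 0.05: 4875 (28.9%) were higher and 3631 (21.5%) lower. The 2 directions differed in size. Among the higher genes 3466 (20.5% of those tested) were at least 2-fold up, against 655 (3.88%) at least 2-fold down. The libraries of the 2 genotypes did not overlap for 5643 genes with higher (33.4%) and 4171 genes with lower (24.7%) levels in gld2-parn1. Genes with a mean of 1 to 10 CPM over the 6 libraries were higher in 45.8% of cases and lower in 8.34%, and genes above 100 CPM were higher in 8.39% and lower in 52.7%. The median log2 fold change of all tested genes was 0.15. When the scaling factors came from muscle, intestine, neuron and collagen genes alone the median became -0.04 and the balance turned, with 3784 genes higher and 4483 lower; changes smaller than this shift depend on the scaling.

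What did not differ was counted with its own rule, since a missed threshold does not show equality. For 3883 genes (23%) the whole 95% interval of the fold change lay within 1.5-fold of wt. Of these, 1338 (7.92% of those tested) were also called, with small but detectable differences, and 2545 (15.1%) were not called. The remaining 5837 genes (34.6%) were neither called nor held, which means that the data did not decide. Precision sets who can be held: 66.8% of genes above 100 CPM met the 1.5-fold rule, 43.8% of genes from 10 to 100 CPM, 5.75% from 1 to 10 CPM and none below 1 CPM.

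**Figure D1:**
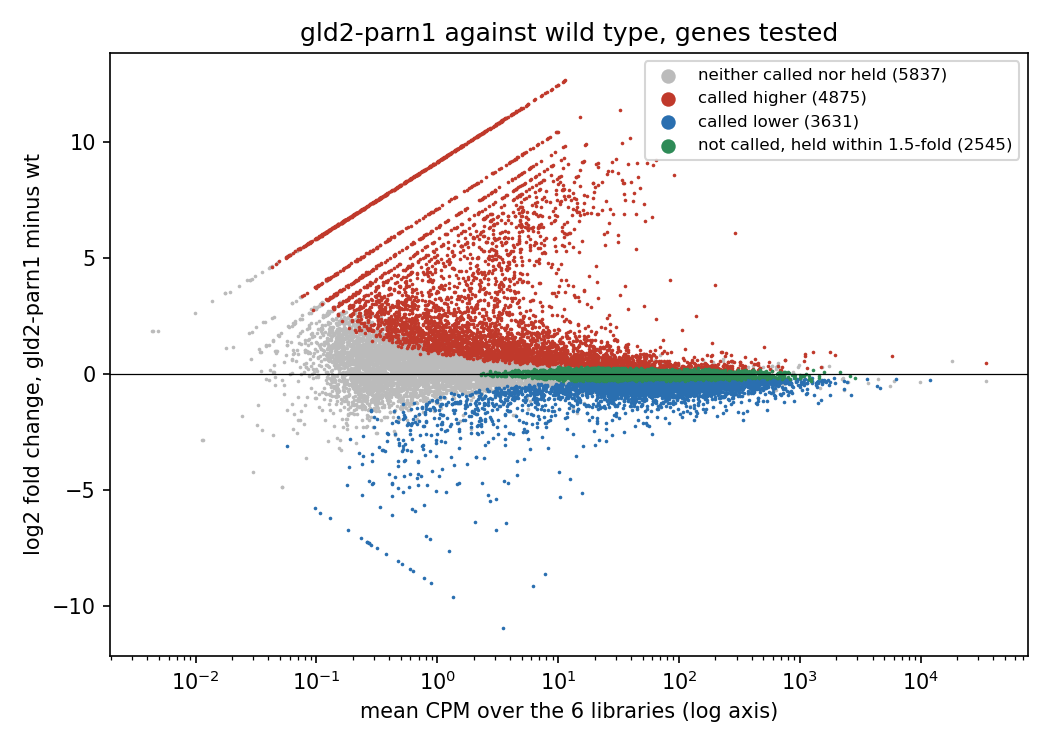
Each point is one of the 16888 tested genes, with its mean CPM over the 6 libraries on a log axis and its log2 fold change, gld2-parn1 minus wt, on the vertical axis; colours give the call. Large positive changes belong to genes of low mean level, the 2545 genes that were held and not called cluster around 0 at higher levels, and the oblique lines at the upper left are genes with 0 or a few counts in all wt libraries, whose fitted fold depends on the prior count.

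The RNAs of sperm formation were the group furthest from wild type. All 26 tested genes for major sperm proteins (MSPs, the cytoskeletal proteins of nematode sperm; 31 in the annotation) were higher in gld2-parn1, as were all 9 tested nspd genes, a family of small sperm peptides. Of 61 other sperm genes, 47 were higher (77%) and 7 lower (11.5%). Over all tested genes 28.9% were higher and 21.5% lower, the shares that every list count against wt is to be read against. These all-gene shares change with level, as given above, and no list was matched for level. The median log2 fold changes were 7.30, 7.44 and 5.24, against 0.15 for all tested genes, and 7.01 and 4.98 for MSPs and other sperm genes when genes without any wt count were set at the bound that 3 counts over the wt libraries allow. Reads of near-identical msp and nspd copies may have been assigned among family members, so single members are less certain than their sum.

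Summed over the family, MSP genes reached 0.797 to 6.42 CPM in the wt libraries and 353 to 506 CPM in the gld2-parn1 libraries. The highest wt sum was that of replicate 3, without which the median log2 fold change of MSP genes was 9.19. In gld2 the sum was 279 to 309 CPM, below every gld2-parn1 library. Called higher in gld2-parn1 than in gld2 were 2 of 26 MSP genes and 9 of 61 other sperm genes, and 0 were lower. Of all tested genes 4.9% were called each way. Somatic scaling moved the median of all tested genes in that comparison from 0.02 to -0.29. The sperm genes were not counted against gld2 under that scaling, so small differences between the mutants are not settled. The level of msp-31 was 0.365, 0.104 and 0.826 CPM in wt and 56.5, 50.7 and 61.4 CPM in gld2-parn1, without overlap (log2 fold change 6.93 ± 0.30, adjusted p = 3.89e-11). The sperm phosphatase gene gsp-4, needed for sperm meiosis and motility, was at 0.133, 0 and 0.0826 CPM in wt and 25.1, 27.4 and 31.6 CPM in gld2-parn1 (log2 fold change 8.51 ± 0.30, adjusted p = 6.99e-14). Both genes were below 1 CPM in every wt library and far higher in every double mutant library. The gene spe-18 showed 0.266, 0.313 and 0.441 CPM against 22.3, 20.5 and 25.8 CPM. In this bulk RNA, more cells of a type and more RNA per cell cannot be told apart.

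Some sperm-linked members also stood apart inside lists that otherwise fell, though cpb-1, fog-1 and fog-2 were not called higher. In the list of germ granule and germline small RNA factors, 29 of 45 were lower, but alg-3 and alg-4, Argonautes known to act in sperm formation, were higher by 8.27 ± 0.50 and 8.50 ± 0.38 on the log2 scale (adjusted p = 5.15e-08 and 1.50e-09). The level of alg-4 was 0.0332, 0.174 and 0.496 CPM in wt and 89.1, 84.5 and 102 CPM in gld2-parn1. Among cytoplasmic polyadenylation factors, cpb-2 was at 0.432, 0.487 and 0.413 CPM in wt and 19.7, 20.5 and 23.2 CPM in gld2-parn1 (log2 fold change 5.57 ± 0.30, adjusted p = 7.12e-12), while its paralogs cpb-3 and cpb-1 were lower, by -1.49 ± 0.09 and -1.38 ± 0.29 (adjusted p = 2.97e-11 and 0.00172). The eggshell list contained 1 higher gene, spe-11, a factor that sperm bring into the egg, with 0.0332, 0 and 0.303 CPM in wt and 20, 22.3 and 20 CPM in gld2-parn1. Among germline fate genes fog-3, which promotes the sperm fate, was higher by 4.59 ± 0.36 (adjusted p = 1.58e-09), whereas fog-1 (0.23, adjusted p = 0.205) and fog-2 (0.08, adjusted p = 0.425) were not called. The names alg-3, alg-4, spe-11, cpb-1 and the fog genes were picked after their values were seen.

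At the extreme were genes with at least 1 CPM in every gld2-parn1 library and at most 3 counts over all wt libraries. There were 393 such genes, 359 of them protein-coding and 31 pseudogenes, and 211 had no wt count at all. The gene T06C10.3 had 0 counts in wt and 22.5, 22 and 24.2 CPM in gld2-parn1, at least 724-fold higher. For msrp-1 the bound was at least 710.5-fold and for F58G1.3 at least 708.7-fold, with 0 wt counts for both. R09E10.2 had 2 counts over the wt libraries and 71, 60.3 and 64.5 CPM in gld2-parn1, and spch-1, a sperm chromatin protein gene, had 3 counts and 31.1, 28.3 and 40.5 CPM. Of the 393 genes, 280 also reached 1 CPM in every gld2 library. The bounds cover counting error only.

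In the reverse direction 8 genes were on in wt and off in gld2-parn1. Y46G5A.28 was at 5.18, 5.74 and 9.97 CPM in wt and had 0 counts in gld2-parn1, at least 263-fold lower, and ZK899.6 was at least 100.1-fold lower. Both were also near 0 in gld2, at 0.12, 0 and 0.111 CPM and 0.0479, 0 and 0 CPM. Of the others, 4 are F-box B genes (fbxb-54, fbxb-83, fbxb-105 and fbxb-119), which encode members of a large family of predicted substrate adaptors for protein degradation.

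Genes of the oocyte and the egg went the other way from sperm genes. Of 39 oocyte and maternal genes 27 were lower (69.2%, against 21.5% of all tested genes) and 0 higher (against 28.9%), with a median log2 fold change of -0.65, and of 18 eggshell and egg activation genes 13 were lower (72.2%) and 1 higher (median -0.65). At least 2-fold lower were 4 of the 27 lower oocyte and maternal genes and 8 of the 13 lower eggshell and egg activation genes. The yolk receptor gene rme-2 was at 2206, 2510 and 2223 CPM in wt and 1201, 1215 and 1255 CPM in gld2-parn1, without overlap (log2 fold change -0.92 ± 0.07, adjusted p = 2.21e-09). The meiotic spindle genes mei-1 and mei-2, which encode the katanin subunits, were lower by -0.81 ± 0.06 and -0.90 ± 0.07. The egg surface gene egg-1, needed for fertilization, was at 667, 657 and 544 CPM in wt and 263, 263 and 299.8 CPM in gld2-parn1 (log2 fold change -1.18 ± 0.12, adjusted p = 3.82e-07). The eggshell layer genes cpg-2 (-1.11 ± 0.15, adjusted p = 4.35e-05) and cbd-1 (-0.51 ± 0.09, adjusted p = 1.19e-04) were lower too. Summed over the list, eggshell genes gave 13020 to 15090 CPM in wt and 8063 to 8832 CPM in gld2-parn1.

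Of 5 mRNAs earlier linked to GLD-2, 4 were lower in gld2-parn1 and 0 higher. The level of gld-1, the translational repressor that controls meiotic progress, was 659, 526 and 447 CPM in wt and from 115 to 179.5 CPM in gld2-parn1, with a mean of 137.8 ± 36.1 CPM (SD, n = 3; log2 fold change -1.98 ± 0.31, adjusted p = 3.09e-04). The sex determination gene tra-2 was 196, 191 and 198 CPM in wt and 99.3, 101 and 101 CPM in gld2-parn1 (-0.96 ± 0.06, adjusted p = 3.49e-11). Neither pair of groups overlapped. The fifth, pup-2, was not called at -0.72 (adjusted p = 0.109), with wt libraries spread from 230 to 346 CPM.

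Meiotic, stem cell and cell cycle genes were mostly lower by less than 2-fold. Of 55 meiotic chromosome genes 40 were lower and 3 higher (median -0.51), of 36 stem cell and fate genes 23 were lower and 2 higher (-0.47), and of 54 cell cycle and replication genes 37 were lower and 4 higher (-0.39). These are 72.7%, 63.9% and 68.5% lower, against 21.5% of all tested genes, and 5.45%, 5.56% and 7.41% higher, against 28.9%. The axis gene him-3 was at 153, 167 and 174 CPM in wt and 65.4, 64.6 and 61.4 CPM in gld2-parn1 (-1.37 ± 0.10, adjusted p = 4.97e-10). The replication origin gene orc-1 was at 258, 245 and 236 CPM in wt and 81, 77.1 and 83.4 CPM in gld2-parn1 (-1.61 ± 0.06, adjusted p = 1.40e-13). Libraries of the 2 genotypes did not overlap for either gene. Within the same lists 21 meiotic, 14 fate and 27 cell cycle genes were held within 1.5-fold (38.2%, 38.9% and 50%, against 23% of all tested genes). Of all tested genes from 10 to 100 CPM 43.8% were held and 39.4% lower, and above 100 CPM 66.8% and 52.7%. The lists were not matched for level. Among the held genes was smc-3, a cohesin subunit, at 305, 307 and 320 CPM in wt and 285, 308 and 308 CPM in gld2-parn1. The Notch receptor gene glp-1, which keeps germline stem cells dividing, was lower by -0.32 ± 0.06 (adjusted p = 1.55e-04), and the PUF-family RNA-binding protein gene puf-8 by -1.35 ± 0.09 (adjusted p = 2.93e-10).

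**Figure D2:**
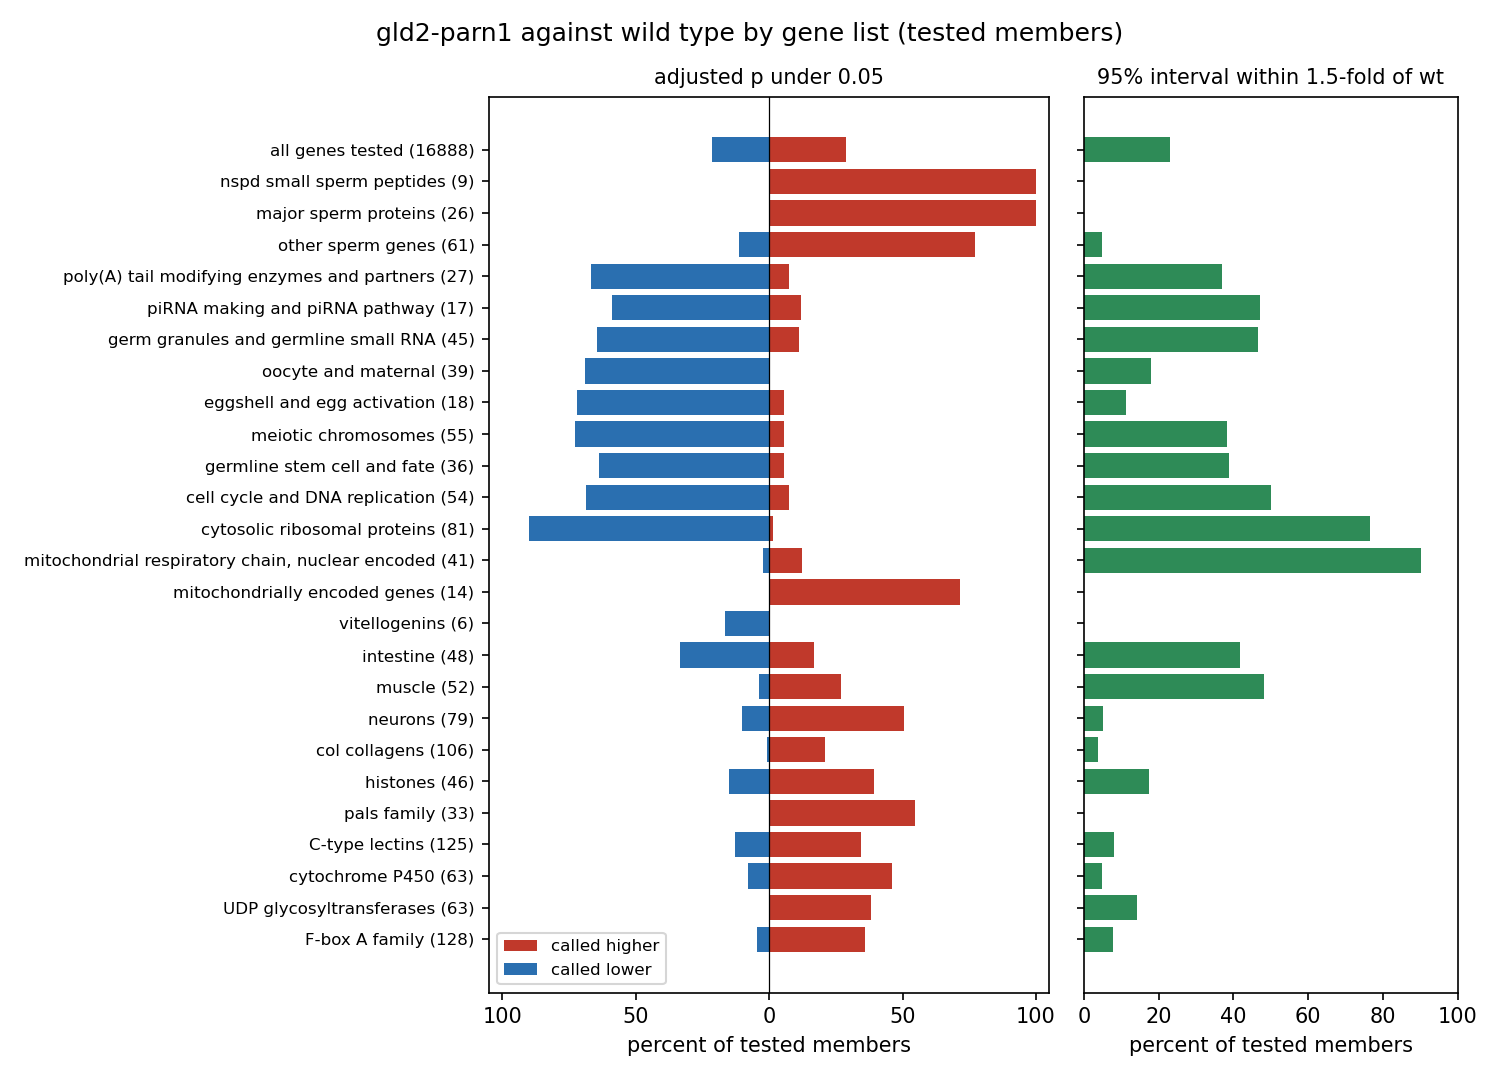
For each list the left panel gives the percent of tested members called higher (red, to the right) or lower (blue, to the left) in gld2-parn1 than in wt, and the right panel the percent whose 95% interval lay within 1.5-fold; the number tested is in parentheses and all 16888 tested genes are the top row. Sperm lists lie fully or mostly to the right, germline and ribosomal protein lists to the left, and the nuclear-encoded respiratory chain has the highest share within 1.5-fold, 37 of 41.

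Genes for the poly(A) machinery and for piRNAs were mostly lower. Of 27 genes for enzymes that change poly(A) tails and their partners, 18 were lower and 2 higher (1 higher without the libraries above 4% ribosomal RNA; median -0.44), and 10 were held within 1.5-fold. The scaffold gene let-711 was lower by -0.39 ± 0.09 (adjusted p = 0.0017). The poly(A)-binding protein gene pab-1 was called lower by -0.34 ± 0.13 (adjusted p = 0.0464), a call that did not survive 7 of the other settings. Of 17 genes that make or use piRNAs, 10 were lower and 2 higher (1 higher without those libraries; median -0.38), and 8 were held within 1.5-fold. The 2 lists were thus lower in 66.7% and 58.8% of cases. Of all tested genes 21.5% were lower, with 39.4% from 10 to 100 CPM and 52.7% above 100 CPM. Neither list was matched for level, so whether these shares follow from the levels of the members was not tested. The piRNA Argonaute gene prg-1 was at 587, 688 and 617 CPM in wt and 262, 249 and 271 CPM in gld2-parn1, without overlap (-1.27 ± 0.08, adjusted p = 3.38e-11). The Argonaute genes wago-1 and hrde-1, which act after PRG-1, were lower by -0.92 ± 0.07 and -0.70 ± 0.10 (adjusted p = 5.71e-10 and 1.96e-05). The higher members were parn-1 itself and henn-1, the piRNA methyltransferase gene, at 0.50 ± 0.07 (adjusted p = 1.33e-05). In gld2 against wt 10 piRNA genes were lower and 1 higher. Between gld2-parn1 and gld2 0 of the 17 were called, against 9.79% of all tested genes. With 17 genes a count of 0 can hardly be told apart from that share.

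Germ granule genes varied among themselves. The lowest of the called ones was meg-1, for a granule protein of the embryo, at 192.1, 193 and 176 CPM in wt and 52.3, 53.7 and 69.3 CPM in gld2-parn1 (-1.68 ± 0.09, adjusted p = 1.08e-11), followed by the small RNA nuclease gene mut-7 (-1.41 ± 0.09, adjusted p = 6.80e-11). The helicase gene cgh-1 was not called (-0.18 ± 0.30, adjusted p = 0.658; called at -0.25, adjusted p = 0.0177, without the libraries above 4% ribosomal RNA), and its wt libraries ran from 920.0 to 1400 CPM. The Argonaute gene csr-1 was lower by -0.45 ± 0.06 (adjusted p = 5.51e-06). In all, 21 of the 45 genes were held within 1.5-fold.

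Early zygotic genes, which the embryos inside a wild-type mother begin to transcribe, included several of the largest decreases. Of 36 tested, 12 were lower (33.3%, against 21.5% of all tested genes) and 7 higher (19.4%, against 28.9%). The gene pes-10 was at 8.47, 6.75 and 6.61 CPM in wt and 0.0787, 0.0794 and 0.0882 CPM in gld2-parn1 (-6.41 ± 0.69, adjusted p = 2.86e-07). For sdz-30, a target of the maternal factor SKN-1, the levels were 18.4, 18.9 and 23.4 CPM and 0.761, 0.397 and 0.382 CPM (-5.28 ± 0.34, adjusted p = 8.37e-11). These libraries did not overlap. Also among the 10 largest decreases were sepa-1, encoding an autophagy adaptor of embryos, at 32.3, 27 and 33.1 CPM in wt and 1.05, 1.11 and 0.441 CPM in gld2-parn1, and vet-6, at 23.1, 24.3 and 25.1 and 0.892, 1.56 and 0.706 CPM. More abundant members moved little, such as pal-1 at -0.18 (adjusted p = 0.0174).

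Abundant genes of translation, energy supply and the cytoskeleton were among those held. The 10 most abundant protein-coding genes held within 1.5-fold were eef-1A.1, eef-2, rla-0, dhc-1, ubq-1, eef-1G, rpl-3, atp-2, rpl-10 and nmy-2. The ATP synthase gene atp-2 was at 2037, 2204 and 1964 CPM in wt and 2203, 2136 and 2301 CPM in gld2-parn1, with a 95% interval of the log2 fold change from -0.04 to 0.24. The dynein heavy chain gene dhc-1 was at 2889, 3155 and 3046 and 2611, 2705 and 2890 CPM (interval -0.31 to 0.01; called lower at -0.28, adjusted p = 0.000847, without the libraries above 4% ribosomal RNA), and the polyubiquitin gene ubq-1 at 2671, 2795 and 2630 and 2488, 2575 and 2526 CPM (interval -0.24 to 0.05). The libraries of the 2 genotypes overlapped for atp-2 and dhc-1 and lay close together for ubq-1. Elongation factor gene eef-1A.1 was held and still called lower, by -0.27 ± 0.07 (adjusted p = 0.00498).

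Of the 41 nuclear genes for the mitochondrial respiratory chain, 37 were held within 1.5-fold (90.2%, against 23% of all tested genes and 66.8% of those above 100 CPM). Of the 41, 5 were higher and 1 lower (median 0.01). The calls were 2 higher and 3 lower without the libraries above 4% ribosomal RNA and 1 and 5 with somatic scaling. The largest change was in cyc-2.2, one of the paired cytochrome c genes, at 0.0996, 0 and 0.0551 CPM in wt and 12.15, 15.2 and 14.1 CPM in gld2-parn1 (7.95 ± 0.39, adjusted p = 2.12e-12), while its paralog cyc-2.1, looked at for that reason, was at 297, 319.8 and 292 and 310.2, 292 and 276 CPM. Genes of the mitochondrial genome behaved differently: 10 of 14 were higher and 0 lower (median 0.67), and none was held within 1.5-fold. COX3, for a cytochrome oxidase subunit, was at 1225, 1053 and 1371 CPM in wt and 2605, 2446 and 2014 CPM in gld2-parn1 (0.95 ± 0.13, adjusted p = 2.22e-05). Mitochondrial genes took 4.60% to 5.30% of the counts in wt and 6.87% to 9.08% in gld2-parn1.

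Cytosolic ribosomal protein genes were lower as a block by a small amount. Of 81 genes, 73 were lower and 1 higher, with a median of -0.35, and 62 of the 81 were held within 1.5-fold all the same. The level of rps-2 was 1480, 1814 and 1648 CPM in wt and 1180, 1083 and 1093 CPM in gld2-parn1 (-0.56 ± 0.08, adjusted p = 4.14e-06), and that of rps-0 1877, 2272 and 1948 and 1540, 1402 and 1447 CPM. The block was lower under both scalings, with medians of -0.35 and -0.54. The higher member, rpl-42, gave 1 count in wt and 1.78, 1.03 and 1.41 CPM in gld2-parn1. Reads of near-identical histone copies may be shared among them. Of 46 tested histone genes 18 were higher and 7 lower, with his-37 and his-6 higher by 1.16 ± 0.09 and 1.03 ± 0.09.

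**Figure D3:**
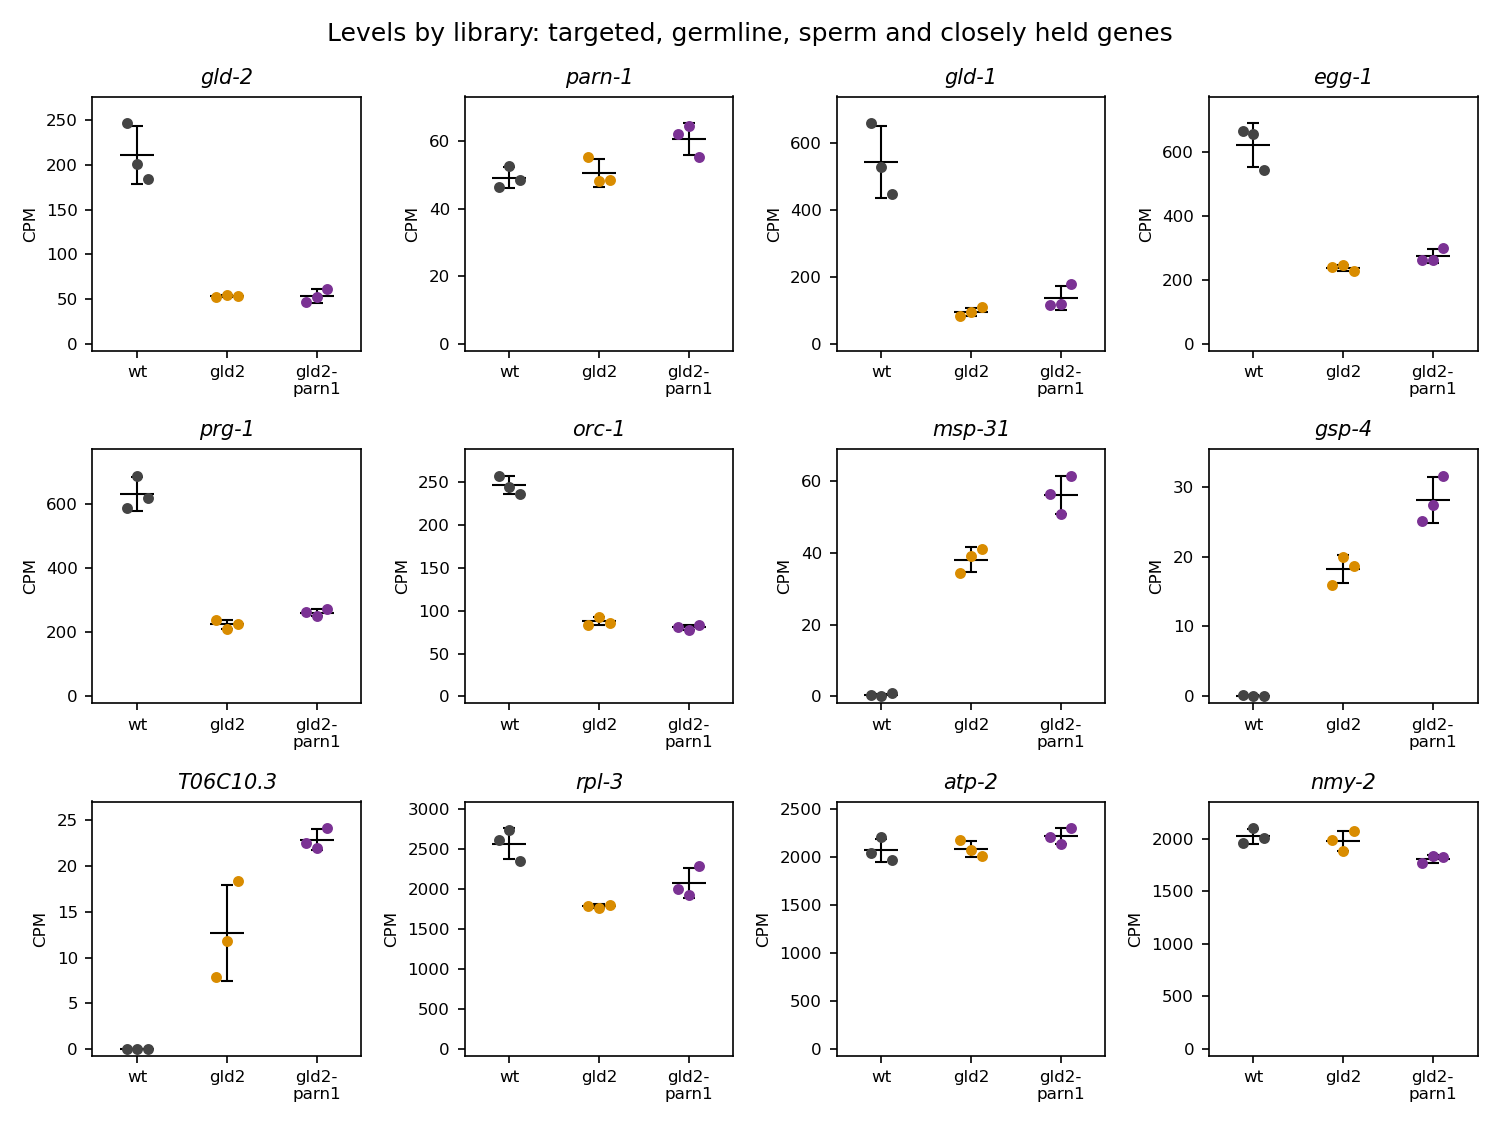
Each panel shows one gene, with CPM on a linear axis that starts at 0, the 3 libraries of wt, gld2 and gld2-parn1 as points, and the mean with its SD as a bar. The libraries of gld2-parn1 lie near those of gld2 for gld-1, egg-1, prg-1 and orc-1, lie above them for msp-31, gsp-4 and T06C10.3, which are near 0 in wt, while atp-2 lies at a like level in all 3 genotypes.

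Somatic tissues gave mixed pictures. Of 48 intestinal genes 16 were lower (33.3%, against 21.5% of all tested genes), 8 higher (16.7%, against 28.9%) and 20 held within 1.5-fold. The peptide transporter gene pept-1 was at 77.1, 84.2 and 79.8 CPM in wt, 19.7, 21.7 and 22 in the single mutant gld2 and 43.4, 38.6 and 48.1 in gld2-parn1, so the double mutant lay between the others and differed from both (against wt -0.89 ± 0.10, adjusted p = 2.74e-07; against gld2 1.04 ± 0.10, adjusted p = 1.50e-06). Of the 48 genes, 16 were higher and 1 lower in gld2-parn1 than in gld2, where 4.9% of all tested genes were called each way. Their median against gld2 was 0.26, and somatic scaling moved the median of all tested genes in that comparison from 0.02 to -0.29. The 48 genes were not counted against gld2 under that scaling, so the direction of their small differences is not settled. The protease gene asp-1 was lower than wt by -1.02 ± 0.09 (adjusted p = 3.33e-08). The yolk protein genes varied widely between libraries: vit-6 ran from 8153 to 15130 CPM in wt and from 7178 to 11220 CPM in gld2-parn1, and 1 of the 6 vit genes was called lower. The highest vit-6 level of each genotype came from the library with the most ribosomal RNA (7.04% and 6.80%). All 6 vit genes were called lower without the libraries above 4%, and the part of ribosomal RNA in this was not tested.

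Muscle genes were called higher in 14 of 52 cases (26.9%, against 28.9% of all tested genes) and lower in 2 (3.85%, against 21.5%), with a median of 0.17. Held within 1.5-fold were 25 (48.1%, against 23% of all tested genes, 43.8% of those from 10 to 100 CPM and 66.8% above 100 CPM). Titin-like unc-22 was at 479, 554 and 756 CPM in wt and 902, 762 and 1055 CPM in gld2-parn1 (0.60 ± 0.18, adjusted p = 0.014; 0.29, adjusted p = 0.264 without the libraries above 4% ribosomal RNA). The myosin gene unc-54 was not called, at 1395, 1494 and 1710 and 1922, 1629 and 2363 CPM (adjusted p = 0.073). Without the libraries above 4% ribosomal RNA 7 muscle genes were higher and 7 lower (median -0.02), and with somatic scaling 8 and 4. The count of higher muscle genes rests on those choices. The somatic reference contains these same muscle genes, so that scaling is no independent check on them. The lowest wt and the highest gld2-parn1 level of unc-22 came from the libraries with 7.04% and 6.80% ribosomal RNA, whose part in the result was not tested. The integrin gene pat-3 was lower by -1.19 ± 0.06 (adjusted p = 7.17e-12).

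Of 79 neuronal genes 40 were higher (50.6%) and 8 lower (10.1%), with a median of 0.83. Of all tested genes 28.9% were higher and 21.5% lower, and from 1 to 10 CPM 45.8% and 8.34%. Whether the neuronal shares follow from the levels of the members was not tested. Without the libraries above 4% ribosomal RNA 27 neuronal genes were higher and 9 lower. The summed level of the neuronal list was not higher: it was 1800 to 1854 CPM in wt and 1416 to 1526 CPM in gld2-parn1. The sum is led by tdc-1 and tbh-1, genes for the synthesis of tyramine and octopamine that are also active in the somatic gonad. The level of tdc-1 was 488, 495 and 458 CPM in wt and 315, 306 and 314 CPM in gld2-parn1 (-0.63 ± 0.06, adjusted p = 5.09e-08), and tbh-1 was lower by -0.85 ± 0.08 (adjusted p = 2.13e-08). Among the higher members was the neuropeptide gene flp-1, named after its values were seen, at 0.797, 0.905 and 1.32 CPM in wt and 5.35, 3.07 and 4.21 CPM in gld2-parn1 (2.05 ± 0.34, adjusted p = 4.79e-05). Collagen (col) genes were higher in 22 of 106 cases (20.8%, against 28.9% of all tested genes) and lower in 1 (0.943%, against 21.5%; 17 and 2 without the libraries above 4% ribosomal RNA), with the abundant col-119 at 1255, 1515 and 1296 and 1994, 1440 and 1595 CPM not called (adjusted p = 0.138).

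Large gene families of defence and detoxification held more higher than lower members. Of 125 C-type lectin genes 43 were higher (34.4%) and 16 lower (12.8%), and of 63 cytochrome P450 genes 29 (46%) and 5 (7.94%). Of 63 UDP glycosyltransferase genes 24 were higher (38.1%) and 0 lower, and of 128 F-box A genes 46 (35.9%) and 6 (4.69%). Over all tested genes 28.9% were higher and 21.5% lower, and from 1 to 10 CPM 45.8% and 8.34%. Whether the family shares follow from the levels of their members was not tested. Among lectin genes clec-79 was at 0.0332, 0.0348 and 0.248 CPM in wt and 50.9, 45.1 and 58.3 CPM in gld2-parn1 (8.76 ± 0.37, adjusted p = 2.08e-11), whereas the more counted clec-87 was lower by -0.90 ± 0.07 (adjusted p = 3.19e-09). The lysozyme gene lys-7, an immune effector, was at 3.98, 4.7 and 5.67 CPM in wt, 56.7, 62.2 and 56.5 in the single mutant gld2 and 62.5, 69.9 and 67.3 in gld2-parn1, so both mutants lay above every wt library. Heat shock and stress genes were split, 10 higher and 13 lower of 38, with hsp-90 lower by -0.61 ± 0.06 (adjusted p = 1.00e-07).

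Higher genes were spread unevenly over the chromosomes. On the X chromosome 10.8% of 2176 tested genes were called and at least 2-fold higher, against 17.3% to 25.6% on the autosomes and 20.5% of all tested genes. The share at least 2-fold lower was 5.56% on X and 2.88% to 5.12% on the autosomes. Of the 393 genes that were on in gld2-parn1 and off in wt, 1 lay on X, or 0.0375% of its 2664 protein-coding genes. Chromosome IV held 127 of them, and its protein-coding members were 3.65% of the 3257 there.

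**Figure D4:**
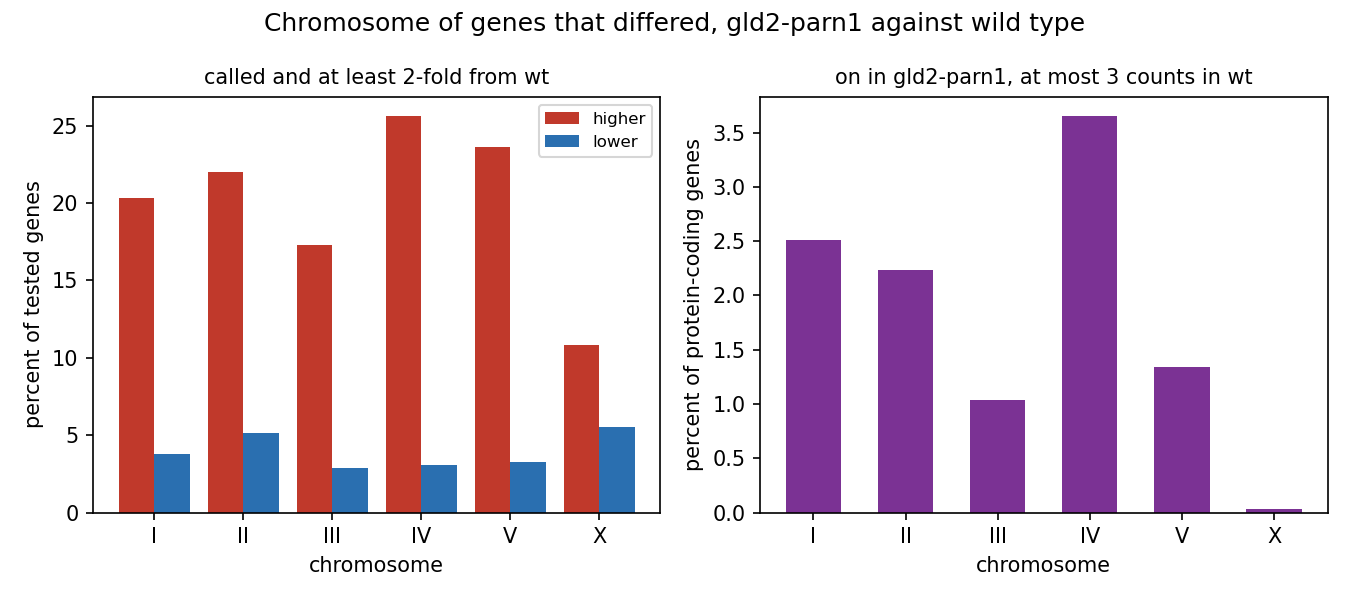
The left panel gives the percent of tested genes on each chromosome that were called and at least 2-fold higher (red) or lower (blue) in gld2-parn1 than in wt, and the right panel the percent of all protein-coding genes that were on in every gld2-parn1 library with at most 3 counts over the wt libraries. X is lowest for higher genes (10.8%) and for genes that came on (0.0375%), and IV is highest for both (25.6% and 3.65%).

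Because the double mutant is labelled as a gld2 knock-out too, its libraries and those of gld2 were set side by side. Against wt, gld2 gave 4869 higher (28.8%) and 3404 lower (20.2%) genes; that comparison shares the wt libraries with the one above, so the likeness of their counts is not independent. A direct comparison called 827 genes higher (4.9%) and 827 lower (4.9%) in gld2-parn1 than in gld2, 9.79% in all, and 6170 genes (36.5%) were held within 1.5-fold. With somatic scaling these counts were 357 and 4243 and the median moved from 0.02 to -0.29, so the direction of small differences between the mutants depends on the scaling. Without 1 library the fewest calls were 355 higher and 404 lower (gld2-parn1 replicate 3 left out), with 363 and 412 without gld2-parn1 replicate 1, 432 and 448 without gld2 replicate 1 and 428 and 505 without gld2 replicate 2. DESeq2 called 1467 higher and 981 lower, and a fit of only the 6 libraries compared 1388 and 1168.

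A few genes set gld2-parn1 apart from both other genotypes. ZK228.3 was at 11.8, 11.4 and 13.8 CPM in wt, 16.18, 13.8 and 17.1 CPM in the single mutant and 0, 0.0529 and 0 CPM in gld2-parn1. ZK228.4 was at 17, 15.8 and 14.2, 21.1, 21.9 and 21 and 0, 0.106 and 0 CPM in the same order of genotypes. In build WBcel235 they are neighbours on chromosome V (18458241 to 18461250, minus strand, and 18462787 to 18465426, plus strand), and their counts were absent or nearly so only in the double mutant libraries among these 9 (against wt -9.15 ± 0.38 and -8.62 ± 0.35, adjusted p = 2.83e-13 and 2.30e-13). The F-box gene fbxa-192 on the same chromosome (17640672 to 17650527, minus strand) was at 12.8, 17.1 and 14.6 CPM in wt, 43.5, 40.2 and 42 in the single mutant gld2 and 1.181, 1.46 and 2.35 in gld2-parn1. Next to it the pseudogenes WBGene00010209, WBGene00010295 and WBGene00010294 were lower than wt as well, by -3.06, -2.297 and -2.09 on the log2 scale. They were looked at after fbxa-192 was seen, and copies of F-box genes may share reads.

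In the other direction timm-17B.2, for a subunit of the mitochondrial inner membrane import channel, was at 8.9, 8.67 and 10.4 CPM in wt, 11.2, 13.4 and 12.32 in the single mutant gld2 and 124, 136 and 213 in gld2-parn1. It was 16.9-fold higher than wt (log2 fold change 4.08 ± 0.17, adjusted p = 1.15e-12), and all 3 double mutant libraries stood far above the other 6. The RNase H family gene rnh-1.3 was at 4.52, 3.69 and 5.07 CPM, 6.54, 4.81 and 6.78 CPM and 36.8, 30.1 and 31.8 CPM in the same order (2.89 ± 0.20 against wt, adjusted p = 1.99e-10).

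The pals genes, many of which respond to intracellular pathogens in C. elegans, were higher than wt in 18 of 33 tested cases (54.5%, against 28.9% of all tested genes) and lower in 0 (against 21.5%), and 9 were higher in gld2-parn1 than in gld2 (4.9% of all tested genes). Their summed level was 20.68 to 27.33 CPM in wt, 27.66 to 35.48 in gld2 and 57.16 to 67.28 in gld2-parn1. The level of pals-14 was 0.332, 0.209 and 0.193 CPM in wt, 0.0718, 0.0512 and 0 in the single mutant gld2 and 4.41, 3.97 and 6.67 in gld2-parn1, without overlap (against wt 4.35 ± 0.46, adjusted p = 1.23e-07; against gld2 6.77 ± 0.57, adjusted p = 1.73e-07). For pals-33 the wt libraries had 0 counts, gld2 0.479, 0.538 and 0.723 CPM and gld2-parn1 3.96, 3.39 and 6.47 CPM, at least 144-fold above wt. The regulator genes pals-22, named after its values were seen, and pals-25 moved little, by 0.62 ± 0.24 (adjusted p = 0.0419) and 0.39 ± 0.20 (adjusted p = 0.111). Close copies within the family may share reads.

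For another set gld2 stood far from both other genotypes. C38D9.2 was at 0.232, 0.383 and 0.386 CPM in wt, 203, 204 and 180.4 in the single mutant gld2 and 0.945, 1.48 and 0.588 in gld2-parn1. F15D4.5 followed the same order, with 1.33, 1.22 and 0.937, 49.4, 47.9 and 42.5 and 1.92, 2.06 and 4.94 CPM, and F40D4.13 with 0.93, 0.209 and 0.331, 16.45, 13.4 and 14 and 0.577, 0.529 and 0.618 CPM. For all 3 genes the gld2 libraries were high and both other genotypes low, and in gld2-parn1 C38D9.2 and F15D4.5 were still higher than wt, by 1.59 ± 0.36 and 1.35 ± 0.36 (adjusted p = 0.00202 and 0.00691), while F40D4.13 was not called (adjusted p = 0.647; called at 1.05, adjusted p = 0.032, without wt replicate 1). The thioredoxin-domain gene txdc-12.2 on X gave 6.18, 6.93 and 7.11 CPM in wt, 0, 0.0256 and 0 in the single mutant gld2 and 15.3, 14.3 and 14.8 in gld2-parn1, so counts were near 0 in gld2 alone and 2.19-fold above wt in the double mutant. The pud genes pud-3 and pud-4, which encode small proteins known for being raised in daf-2 insulin receptor mutants, were above wt by 2.40 and 2.58 and below gld2 by -2.56 and -2.85 on the log2 scale. The calls of both above wt were lost without the libraries above 4% ribosomal RNA (2.11 and 2.43, adjusted p = 0.0608 and 0.0672), and that of pud-3 also without wt replicate 2 and with only the 6 libraries. Their wt levels were uneven, pud-3 at 0.465, 2.89 and 7.55 CPM, and without wt replicate 3 the differences from wt were 3.57 and 3.58. Whether such genes follow the parn-1 knock-out or other differences between the animals was not tested.

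**Figure D5:**
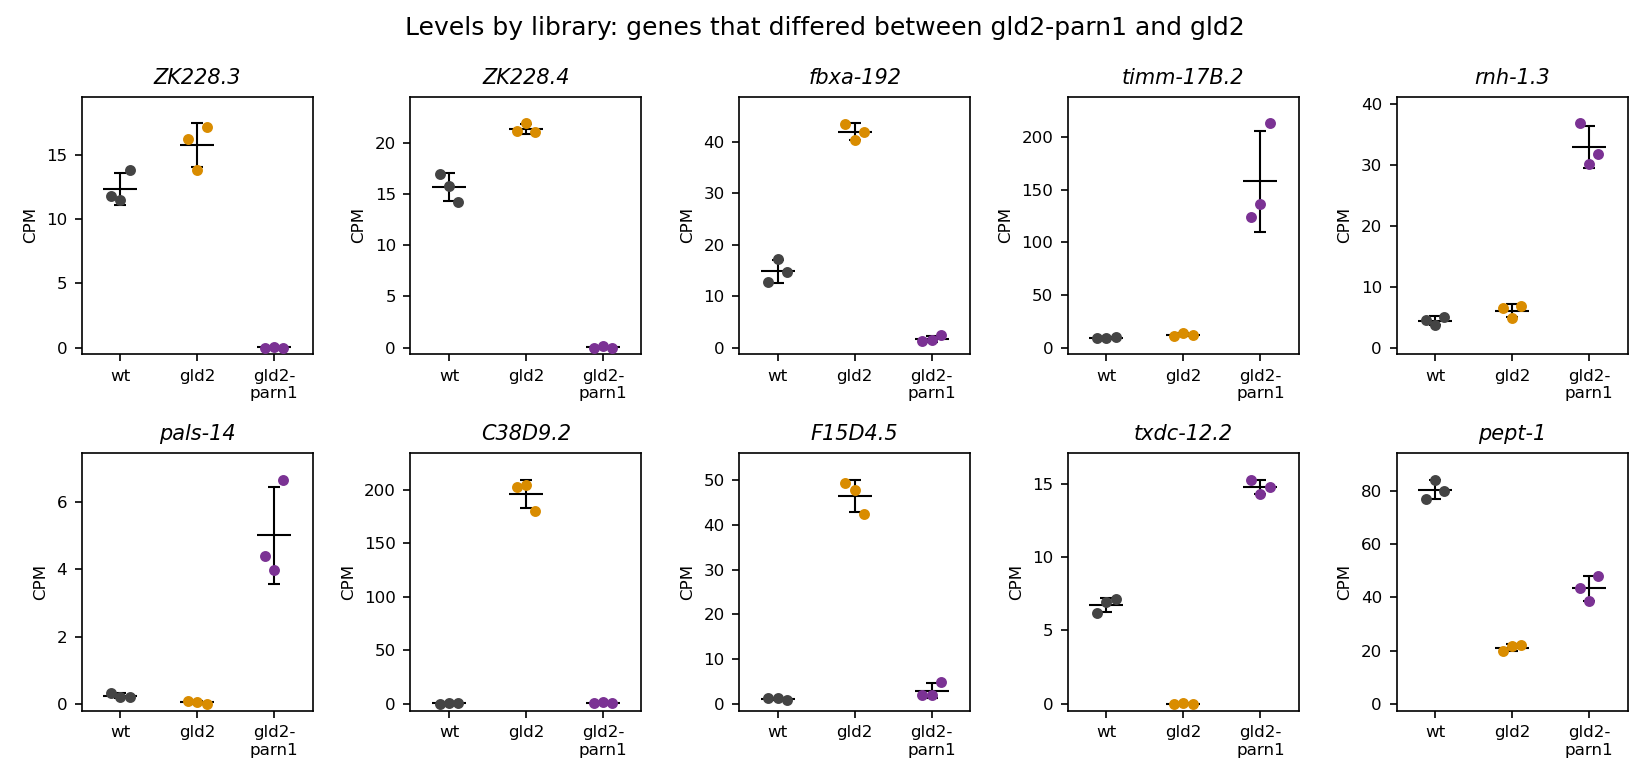
Each panel shows one gene on a linear CPM axis that starts near 0, with the 3 libraries of wt, gld2 and gld2-parn1 as points and the mean with its SD as a bar. The double mutant stands alone, low for ZK228.3, ZK228.4 and fbxa-192 and high for timm-17B.2, rnh-1.3 and pals-14; gld2 stands alone for C38D9.2, F15D4.5 and txdc-12.2; pept-1 in gld2-parn1 lies between wt and gld2.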

How the data were processed

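RNA was sequenced from whole adult worms, 24 h past the middle of the last larval stage. Per the labels' protocols, Trizol was used for RNA, ribosomal RNA was removed with a mammalian (human, mouse, rat) depletion kit, and libraries kept strand. The authors deposited raw read counts, 1 row per WormBase gene. Tools named in the submitters' processing notes are STAR 2.5.2b and featureCounts, Subread 1.4.6-p4, next to FastQC and DESeq2 1.18.1, with genome build WBcel235. Use of strand and treatment of reads that match several genes are not given in the sources used here, so overlapping genes and close paralogs (msp, his, col, vit, fbxa, pals) are uncertain. A deposited normalized table was not used.

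Of 46739 genes, 30638 had a count and 16888 passed filterByExpr. The WBcel235 annotation gave symbols and positions; it has a record for 46484 identifiers; the others held 0.155% of counts. Counts of all 15 libraries were fitted with edgeR 4.0.16 (R 4.3.3; TMM scaling, robust dispersion, 5 genotype means, 10 residual degrees of freedom, common biological coefficient of variation 0.178), so that all genotypes share 1 estimate of the spread. Each p is from glmQLFTest adjusted by Benjamini-Hochberg across all genes tested, and calls use 0.05. The SE is the absolute log2 change over the square root of F. A gene was held when its 95% interval lay within 1.5-fold. CPM are counts over the TMM-scaled library size. On-off genes had at least 1 CPM in every library of one genotype and at most 3 counts over the other; bounds use 3 counts over the group at 0. The script was tested on simulated data. No pair within a genotype was a copy (chi-square per degree of freedom at least 13.4). The largest values, 330.7 and 391.4, were those of gld2-ccf1 replicate 2 against replicates 1 and 3 of its genotype. That library also enters the shared estimate of the spread.

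Named genes are gld-2, parn-1, ccr-4 and ccf-1; the 10 largest changes each way with a mean of at least 5 CPM and no overlap; the 10 most abundant held protein-coding genes; the 6 largest changes each way against gld2; 2 members of each list by adjusted p and 2 by level; and on-off genes. Lists and members were chosen with earlier results of these data known. Alternatives were other scalings, filters, DESeq2 1.42.0, only the 6 libraries compared, a replicate block, and libraries left out.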

Additional observations from a re-analysis of the deposited data

How the results depend on the processing

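No called change of a named gene turned its sign under any alternative run, but calls were lost or gained: of the named changes refitted, 12 lost their call without wt replicate 2, 11 without the libraries above 4% ribosomal RNA, 7 with somatic scaling and 0 with RLE scaling or DESeq2. With scaling from somatic genes the balance against wt turned to 3784 higher and 4483 lower, 2413 genes were held within 1.5-fold, and 357 were higher and 4243 lower than gld2. With the stricter filter (at least 5 CPM in at least 3 libraries) 9544 genes were tested and 2923 were higher than wt. The median log2 fold change of the tested genes was 0.01 in that run, against 0.15 in the main run. What lowered the count was not tested. DESeq2 called 1467 genes and a fit of only the 6 libraries 1388 genes higher than gld2, against 827; the cause was not tested. Leaving out 1 library gave 4240 to 4767 higher and 3222 to 3467 lower than wt, 3471 to 3684 held, and 355 to 711 higher and 404 to 622 lower than gld2. The lowest counts against gld2 came without gld2-parn1 replicate 3. Without the libraries above 4% ribosomal RNA 3984 genes were higher and 3903 lower than wt. Replicate numbers do not pair the libraries (correlations of same-numbered deviations between wt and gld2-parn1 were -0.348, -0.027 and -0.206). With the replicate block, 4833 genes were higher and 3592 lower than wt, 3887 were held, and 857 were higher and 771 lower than gld2. Depth limits genes under 1 CPM, none of which could be held.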

Other observations

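Lists outside the comparisons above showed mixed directions. Of 26 genes for dosage compensation and MES chromatin 12 were lower and 4 higher than wt, and 15 were held within 1.5-fold. The gene sdc-2, which starts X dosage compensation in hermaphrodites, was at 49.4, 49.6 and 61.1 CPM in wt, 50.9, 41.1 and 43.2 in the single mutant gld2 and 29.1, 26 and 29.4 in gld2-parn1, lower than both (against wt -0.92 ± 0.10, adjusted p = 2.19e-07; against gld2 -0.68 ± 0.10, adjusted p = 2.53e-04, edgeR). Of 62 fat metabolism genes 15 were higher (24.2%, against 28.9% of all tested genes) and 17 lower (27.4%, against 21.5%). The acyl-CoA dehydrogenase gene acdh-8 was at 0.0664, 0.209 and 0.468 CPM in wt and 32, 32.4 and 32.3 CPM in gld2-parn1, and the fatty acid synthase gene fasn-1 was higher by 0.63 ± 0.11 (adjusted p = 1.05e-04).

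The S-adenosylmethionine synthetase genes went in opposite directions. The level of sams-5 was 0.565, 1.01 and 1.35 CPM in wt and 49.4, 44.9 and 48.3 CPM in gld2-parn1, and that of sams-3 was 103.9, 104.2 and 100.2 and 36.6, 40.5 and 37.1 CPM. Of 30 genes of the propionate shunt and methionine cycle 6 were higher and 7 lower. Of 37 somatic gonad genes 10 were higher (27%, against 28.9% of all tested genes) and 7 lower (18.9%, against 21.5%), or 5 and 10 of 38 without the libraries above 4% ribosomal RNA, with the ephrin receptor gene vab-1 lower by -0.96 ± 0.06 (adjusted p = 7.11e-11). Of 35 hypodermal genes other than collagens 7 were higher and 8 lower, with che-14 at 1.2, 0.87 and 1.13 CPM in wt and 7.82, 7.89 and 4.65 CPM in gld2-parn1.

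A stretch of the X chromosome, noticed after the values were seen, stood out between the mutants. In its first 1 Mb (build WBcel235) 35 of 121 tested genes were called between gld2-parn1 and gld2, 6 higher and 29 lower, or 28.9% against 9.79% of all tested genes. Among 101 bins of 1 Mb with at least 50 tested genes the median share was 9.72% and the second highest 16.13%. Against wt 46.3% of the genes of that first bin were called, against 50.4% of all tested genes. The cause was not tested.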
